A study of Sus scrofa domesticus with 2 samples.

Results

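The cells described here are the 174 deep cultured aorta endothelial cells (ECs) of the domestic pig with the highest share of transcripts from CCL5, SLPI and CFD. They were taken from 581 kept ECs in a library of 1185 aorta cells, and the series as used here holds 7131 cells. A cell was kept when it had 5000 or more detected genes, under 30% of its unique molecular identifiers (UMIs, 1 for each captured transcript) from 13 mitochondrial genes, and more PECAM1 UMIs than COL1A1 and COL1A2 UMIs together. PECAM1 is an adhesion molecule of ECs, and COL1A1 and COL1A2 encode type I collagen, the main collagen of fibroblasts. The kept cells were ranked by the summed share of CCL5, SLPI and CFD, the upper 30% are called members, and the other 407 kept cells are the comparison group. The members were therefore selected on CCL5, SLPI and CFD, and the values of these 3 genes are a description of the choice. The comparison asks what else differs in ECs that hold many of these transcripts.

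The study surveyed single cells across tissues of Sus scrofa domesticus and added primary ECs grown in culture from aorta and from lung. For the aorta library, the vessel close to the lung was sealed, filled with digestion buffer and kept at 37 °C, and for the lung library, a lung lobe was perfused and digested with collagenase. Cells of both sources were grown in PAEC medium, which is DMEM with 10% fetal calf serum, and received no other treatment that the labels name. PolyA RNA was sequenced by the 3′ method of 10x Genomics (v3 chemistry), with 1 library from each source. The labels and the main text of the study do not give the number of animals behind these libraries. By the study's methods, tissues for single-cell sequencing came from slaughterhouse pigs, a cross of Duroc, Landrace and Large White, 6 months of age. The aorta library held 46080859 UMIs and the lung library 57213236 UMIs. Both libraries shared 5 cell barcodes, and 2 of these belonged to members. With 1 library per group and members and comparison cells from the same library, no test was made, cells were not treated as replicates, and all intervals below are 95% intervals that cover counting error only. The study's methods set an upper limit on detected genes per cell to remove doublets, and the cells kept here lie beyond that limit as it is written. Of the 1185 deposited aorta cells, 709 had 5000 or more detected genes. The study's text reports more aorta cells after filtering than the deposited library holds under that limit. Whether the limit was applied to this library as written is therefore unclear. A doublet score from Scrublet marked 6 cells of the aorta library, among them 2 members and 2 comparison cells, and these were kept.

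ECs line vessels and are both targets and sources of immune signals. In response to type I interferon, a cytokine that cells release when they sense viral or misplaced nucleic acid, cells switch on a broad set of interferon-stimulated genes, which includes chemokines and antiviral enzymes. Secreted protease inhibitors and complement proteins form another arm of defence at the vessel wall, and cultured ECs slow their division and change their secreted products as they become dense or age.

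All 581 kept cells were deep, and members and comparison cells were alike in depth. Members had a median of 55983 UMIs (lowest 25358, highest 121613) and 6602.5 detected genes, and the comparison cells had a median of 57188 UMIs (lowest 28464, highest 120479) and 6810 detected genes. The median mitochondrial share was 7.74% in members and 6.35% in the comparison cells, so members held somewhat more mitochondrial RNA. The share of CCL5, SLPI and CFD in a cell had a median of 0.120% in members, up to 3.80%, and of 0.00647% in the comparison cells. At the edge of the choice the shares were continuous: the 3 members nearest to it had 0.0519%, 0.0521% and 0.0528%, and the 3 comparison cells nearest to it had 0.0515%, 0.0510% and 0.0501%. The members are therefore the upper end of a gradient and not a group set apart by a gap.

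Levels are given as UMIs summed over a group of cells per 1000000 UMIs of that group (CPM), and folds are members over comparison cells. SLPI, the secretory leukocyte protease inhibitor that blocks neutrophil elastase (chr17:47595804-47598364 in Sscrofa11.1), stood at 1867 CPM (95% Poisson interval 1840 to 1893) in members and 69.0 CPM (65.7 to 72.3) in the comparison cells. A member held between 0 and 1415 SLPI UMIs, with a median of 56, and a comparison cell between 0 and 40, with a median of 1. SLPI thus made up most of what the ranking read. CCL5, a chemokine that draws T cells and monocytes (chr12:39652731-39659121), stood at 314 CPM (304 to 325) and 9.57 CPM (8.38 to 10.9). A member held between 0 and 472 CCL5 UMIs, with a median of 1. CCL5 was thus concentrated in few cells, and the 5 members with the most CCL5 UMIs held 57.2% of all CCL5 UMIs in members. CFD, complement factor D, the protease that cleaves factor B in the alternative pathway (chr2:77509792-77511988), stood at 193 CPM (184 to 201) and 29.1 CPM (27.0 to 31.3). A member held between 0 and 363 CFD UMIs, with a median of 3. RSAD2, the antiviral enzyme viperin (chr3:128880853-128897809), was a fixed marker of these cells but did not choose them, and it stood at 198 CPM (190 to 207) in members and 58.8 CPM (55.8 to 61.9) in the comparison cells. A member held between 0 and 329 RSAD2 UMIs with a median of 0, and a comparison cell between 0 and 152 with a median of 0.

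RNA set free in the suspension gives UMIs in cells that do not express a gene, so shares of cells with a UMI were set beside those in 128 deep aorta cells with collagen UMIs at or above PECAM1 UMIs, here called collagen cells, which had a median of 64512.5 UMIs. SLPI UMIs were found in 96.6% of members (exact Clopper-Pearson interval 92.6 to 98.7), 66.3% of comparison cells (61.5 to 70.9) and 22.7% of collagen cells (15.7 to 30.9). With every cell thinned to 40000 UMIs, which left 151 members, 380 comparison cells and 122 collagen cells, the SLPI shares were 97.4%, 57.9% and 8.20%. SLPI was therefore found in ECs of both groups well above its share in collagen cells. CCL5 UMIs were found in 51.7% of members, 27.3% of comparison cells and 15.6% of collagen cells, and in 43.7%, 22.6% and 10.7% after thinning. CFD UMIs were found in 84.5% of members, 59.2% of comparison cells and 7.81% of collagen cells, and in 76.2%, 50% and 6.56% after thinning. RSAD2 followed the same order. Its UMIs were found in 47.7% of members (40.1 to 55.4), 31.7% of comparison cells (27.2 to 36.5) and 12.5% of collagen cells (7.32 to 19.5), and in 43.7%, 27.6% and 9.84% after thinning. The high shares of SLPI, CCL5 and CFD in members follow from the choice of the cells, while RSAD2 was not used in it.

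The 3 genes did not mark the same members. SLPI had the most UMIs of the 3 in 147 members (84.5%), CCL5 in 17 (9.77%) and CFD in 10 (5.75%). As 3′ libraries give 1 tag per captured molecule, UMIs were compared between genes without a correction for length. Of the 174 cells ranked highest by SLPI alone, 154 were members, against 91 by CFD alone and 80 by CCL5 alone. Only 37 members (21.3%) were in the upper 30% for all 3 genes, 77 (44.3%) for 2 of them and 60 (34.5%) for 1. Across the 174 members, which share 1 library, the Spearman correlation was -0.08 between CCL5 and SLPI, 0.12 between CCL5 and CFD and -0.01 between SLPI and CFD. The Pearson correlations were -0.06, 0.13 and 0.48. As the members were chosen by the sum of these genes, the choice itself can lower the correlations within them, and nothing is read from their size. Across all 581 kept cells the Spearman correlations were 0.21, 0.22 and 0.29.

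Of 7556 genes compared (10 CPM or more over the kept cells, without the 3 ranking genes), 357 (4.72%) were at least 1.5-fold higher in members and 674 (8.92%) at least 1.5-fold lower, with a median log2 fold of -0.04. The genes higher in members included interferon-stimulated genes, the matrix protein MGP, the metalloproteinase inhibitor TIMP3, the stress cytokine GDF15 and the lysosomal protease CTSL, and the genes lower in members were led by cell cycle genes. MGP, which holds back calcification of the vessel wall (chr5:57665272-57669360), stood at 304 CPM in members and 83.4 CPM in the comparison cells, a fold of 3.65 (3.45 to 3.86). TIMP3 (chr5:12185816-12242599) stood at 228 and 67.0 CPM, a fold of 3.40 (3.19 to 3.62). MGP and TIMP3 are both secreted into the matrix, and MGP was the less evenly spread, with 12 members that held 50% of its UMIs in members against 30 for TIMP3. The 5 members with the most UMIs held 30.6% of the MGP UMIs and 19.7% of the TIMP3 UMIs. TIMP3 UMIs were found in 95.4% of thinned members, 66.8% of thinned comparison cells and 12.3% of thinned collagen cells, and MGP UMIs in 69.5%, 46.6% and 31.1%. NOV, a matricellular protein of the CCN family (chr4:19505698-19514481), stood at 57.5 and 19.7 CPM, a fold of 2.92 (2.59 to 3.30). MDM4, an inhibitor of p53 (chr9:65175488-65219747), stood at 76.5 and 30.6 CPM, a fold of 2.50 (2.26 to 2.77), and TMEM40 (chr13:68705606-68737194) had a fold of 2.59 (2.31 to 2.90).

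Interferon-stimulated genes were the largest group of listed genes higher in members. Of 36 compared, 23 were called higher and 0 lower, beside 4.72% and 8.92% of all 7556 genes. The median log2 fold of the list was 0.68. Its summed level was 7207 CPM in members and 3648 CPM in the comparison cells. When both groups were limited to cells scored G1, 10 of 38 were called higher, beside 233 of all 7274 genes compared (3.20%), and the median log2 fold was 0.34. When the G1 cells were ranked anew, 16 of 38 were called higher, beside 286 of all 7274 genes. The median log2 fold of the list was then 0.47 and the fold of RSAD2 2.50. ISG15, a ubiquitin-like protein that is joined to other proteins (chr6:63363201-63364211), stood at 1565 CPM in members and 563 CPM in the comparison cells, a fold of 2.78 (2.72 to 2.85). IFI6, which protects against viral replication at membranes, stood at 1297 and 588 CPM, a fold of 2.21 (2.15 to 2.26). RSAD2 had a fold of 3.37 (3.15 to 3.61), and it was 2.02 among cells scored G1. IFIT1 (chr14:101237403-101249486) and IFIT2 (chr14:101193421-101204292) bind foreign RNA. IFIT1 stood at 347 and 96.2 CPM, a fold of 3.60 (3.42 to 3.80), and IFIT2 at 80.3 and 12.8 CPM, a fold of 6.27 (5.50 to 7.16). Among cells scored G1, IFIT1 had a fold of 2.02, IFIT2 of 3.71 and ISG15 of 1.84. The fold of IFIT2 came from few cells, since 1 member held 29.5% and 5 members held 71.7% of its UMIs in members, and IFIT2 UMIs were found in 38.5% of members, 34.2% of comparison cells and 29.7% of collagen cells. IRF7, the factor that amplifies the interferon response (chr2:372235-375572), had a fold of 2.63 (2.37 to 2.93), PLAC8 (chr8:135250761-135279091) of 3.41 (3.04 to 3.81) and TNFSF10, the death ligand TRAIL, of 3.48 (2.91 to 4.16).

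CXCL10, a chemokine for T cells that interferon induces (chr8:71693641-71695948), had the largest fold of the list at 41.5 (35.1 to 49.5), with 246 CPM in members and 5.91 CPM in the comparison cells. That level was carried by few cells. CXCL10 UMIs were found in 13.8% of members (9.04 to 19.8), 6.14% of comparison cells (4.01 to 8.93) and 5.47% of collagen cells (2.23 to 10.9). One comparison cell held 54 of the 144 CXCL10 UMIs of its group, and one collagen cell 28 of 38. One member held 36.4% of the CXCL10 UMIs in members, and 5 members held 79.4%. Members with a CXCL10 UMI, 24 cells, had a summed level of 19226 CPM (19009 to 19444) for the other interferon-stimulated genes, against 4761 CPM (4716 to 4807) in the other 150 members. Comparison cells with a CXCL10 UMI, 25 cells, had 10416 CPM (10253 to 10582), against 3204 CPM (3181 to 3227) in those without. RSAD2 divided the cells in the same way. The 83 members with an RSAD2 UMI had 10907 CPM for the other interferon-stimulated genes and the 91 without it had 3560 CPM, and among comparison cells the levels were 6163 CPM in 129 cells with and 2322 CPM in 278 cells without. Cells with a raised interferon response were thus present in both groups.

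A large part of the interferon signal of the members lay in the 17 cells in which CCL5 led. These 17 cells held 1269 of the 2042 RSAD2 UMIs, 2248 of the 2532 CXCL10 UMIs and 8053 of the 16131 ISG15 UMIs of the members. ISG15 stood at 8111 CPM in these cells and at 827 CPM in the 147 cells in which SLPI led. RSAD2 stood at 1278 and 77.6 CPM, and CXCL10 at 2264 and 32.3 CPM. These are levels of summed UMIs, and the cells were not alike. The share of UMIs from interferon-stimulated genes ran from 0.243% to 6.41% in CCL5-led cells and from 0.0972% to 3.27% in SLPI-led cells. The median share of UMIs from interferon-stimulated genes in a cell was 1.14% in CCL5-led cells, 0.356% in SLPI-led cells and 0.696% in the 10 CFD-led cells. When the 17 CCL5-led cells were left out, a step chosen after the data had been seen, 7 of 36 interferon-stimulated genes were called higher in place of 23, beside 328 of all 7552 genes. The fold of RSAD2 was then 1.41 (1.29 to 1.54), that of ISG15 1.54 (1.499 to 1.58), that of IFIT1 1.55 (1.45 to 1.66) and that of IFIT2 1.40 (1.15 to 1.69). CXCL10 was still higher in members, with a fold of 5.15 (4.20 to 6.34). IRF7 was then at a fold of 1.57 (1.38 to 1.78), PLAC8 at 2.13 (1.87 to 2.43) and TNFSF10 at 2.26 (1.85 to 2.78). Ranking the cells by SLPI and CFD without CCL5 gave 3 of 36 interferon-stimulated genes called higher, beside 305 of all 7556 genes, and a fold of 1.02 for RSAD2. CXCL10 and IFIT2 were then lower in the cells ranked highest, with folds of 0.774 and 0.625. IFIT1 was at a fold of 1.03 and ISG15 at 1.35, and the list had a median log2 fold of 0.26. MGP, TIMP3 and GDF15 did not depend on the CCL5-led cells, with folds of 3.87, 3.45 and 3.10 without them. Across the 174 members, CCL5 and the interferon-stimulated genes had a Pearson correlation of 0.81 and a Spearman correlation of 0.29, and SLPI and the interferon-stimulated genes had a Pearson correlation of -0.10 and a Spearman correlation of -0.21. Across all 581 kept cells, which were not chosen by these genes, the values were 0.72 and 0.29 for CCL5 and 0.03 and 0.30 for SLPI.

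**Figure D1:**
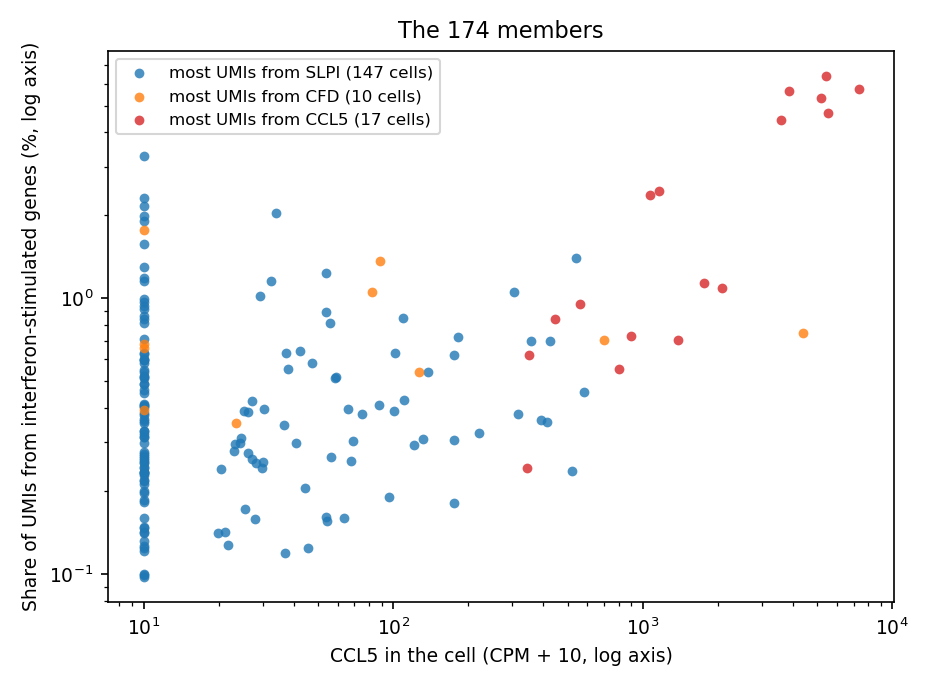
Each point is 1 of the 174 members, with CCL5 in CPM plus 10 on the x axis and the share of UMIs from interferon-stimulated genes in percent on the y axis, both on log axes, coloured by the ranking gene with the most UMIs. The 17 cells led by CCL5 have a median share of 1.14% and the 147 led by SLPI one of 0.356%.

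Of the genes that sense, carry or receive the interferon signal, those with a level high enough to be compared differed little. Among interferons, receptors and signalling genes, 0 of 15 compared were called higher and 1 lower, with a median log2 fold of 0.09. The gene called lower was CGAS, the sensor of DNA in the cytosol, with a fold of 0.569 (0.468 to 0.688). JAK1, a kinase of the interferon receptors and the gene with the highest level in the list, stood at 257 and 220 CPM, a fold of 1.17 (1.11 to 1.22). IFNG had 0 UMIs in members, which allows up to 0.291 CPM by the limit of 3 counts used here for a count of 0. Of the 20 listed genes among the features, only IFNG was at 0 in members, and 2 were at 0 in the comparison cells. The listed genes too low to be compared, other than IFNG, are not described. The inflammatory targets of NF-κB, of which CCL5 is itself known as one, were read in the same way. Of 23 compared, 0 were called higher and 2 lower, with a median log2 fold of 0.09. Of all genes, 4.72% were called higher and 8.92% lower, so the counts of the signalling list and the NF-κB list lie near those shares. IL6, an inflammatory cytokine, stood at 59.8 CPM in members and 107 CPM in the comparison cells, a fold of 0.557 (0.510 to 0.609), and CCL20 had a fold of 0.325 (0.231 to 0.449). CCL2, a monocyte chemokine at a high level in both groups, stood at 3758 and 4376 CPM. When the cells were ranked by CCL5 alone, 3 of the 23 NF-κB targets were called higher, beside 215 of all 7556 genes, and in the lung ranking described further on 2 of 22 were called higher, beside 98 of all 7382 genes.

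Among other genes of defence, members differed in a few. The secreted antiproteases and defence proteins had 2 of 6 called higher, TIMP3 and the extracellular chaperone CLU, which stood at 295 and 145 CPM, a fold of 2.03 (1.94 to 2.14). CST3, an inhibitor of cysteine proteases, stood at 2213 and 1569 CPM, a fold of 1.41 (1.39 to 1.43). Of 20 listed antiproteases and defence proteins among the features, only these 6 had a level high enough to be compared. Their median log2 fold was 0.40, against -0.04 over all genes, of which 4.72% were called higher. Complement genes other than CFD had 3 of 4 called higher, with a median log2 fold of 0.98, against 1 of 4 among cells scored G1 and 2 of 4 in the lung. C1S, a protease of the classical pathway, stood at 56.2 and 23.5 CPM, a fold of 2.39 (2.12 to 2.68), and SERPING1, its inhibitor, had a fold of 1.92 (1.74 to 2.11). C3, the substrate of the convertase that CFD helps to form, was at 5.63 and 2.59 CPM and too low to be compared. Antigen presentation differed by class. Of the MHC class II list, 2 of 2 genes compared were called higher. SLA-DQB1 stood at 21.5 and 5.83 CPM, a fold of 3.69 (2.98 to 4.59), and CD74, the invariant chain, at 32.5 and 10.1 CPM, a fold of 3.22 (2.72 to 3.81). CD74 UMIs were found in 46.4% of thinned members, 29.7% of thinned comparison cells and 21.3% of thinned collagen cells. Of the MHC class I list, 0 of 11 were called in either direction, with a median log2 fold of -0.03, and B2M, its light chain, had a fold of 1.37 (1.34 to 1.39).

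Cell cycle genes were lower in members nearly as a whole. Of 39 S phase genes compared, 38 were called lower, with a median log2 fold of -1.18, and of 47 G2M genes 46 were called lower, with a median log2 fold of -1.46. None of either list was called higher, and 8.92% of all 7556 genes were called lower. The summed S phase level was 1164 CPM in members and 2379 CPM in the comparison cells, and the G2M level 1924 and 4658 CPM. TOP2A, the topoisomerase that untangles chromosomes (chr12:22001300-22028452), stood at 60.3 and 237 CPM, a fold of 0.255 (0.234 to 0.277). CDK1, the kinase that drives entry into mitosis (chr14:64233945-64255290), stood at 26.8 and 93.4 CPM, a fold of 0.287 (0.252 to 0.325). The linker histone HIST1H1D was the lowest of the named genes, with a fold of 0.246 (0.219 to 0.277). LMNB1, a lamin of the nuclear envelope (chr2:129807228-129862211), had a fold of 0.295, NCAPG, a condensin subunit (chr8:12759225-12807164), of 0.298 and CENPF, a kinetochore protein (chr9:128948386-129012241), of 0.298. SPDL1 (chr16:54276943-54303465), BBS7, HMGB2 (chr14:16709966-16712288) and CKAP2 (chr11:15751717-15767068) followed, with folds of 0.308, 0.320, 0.320 and 0.323. HIST1H1D, LMNB1, NCAPG, SPDL1 and BBS7 are in neither list and were named for their small folds. TOP2A UMIs were found in 30.5% of thinned members, 52.9% of thinned comparison cells and 73.8% of thinned collagen cells.

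By phase scores of these S and G2M genes, 73.6% of members were scored G1 (66.4 to 79.9) and 35.1% of comparison cells (30.5 to 39.99). Members scored S made up 12.1% and members scored G2M 14.4%, against 26.8% and 38.1% of the comparison cells. After thinning, the G1 shares were 74.2% (66.4 to 80.9) and 35.5% (30.7 to 40.6). Phase scores also read free RNA, and its part in them was not tested. With the ranking cut into 10 parts of 58 or 59 cells, the G1 share was 20.3% in the lowest part, 51.7% in the part just below the members and 81.0% in the highest part. The G2M level was 5649 CPM, 3917 CPM and 1794 CPM in the same parts. The difference in cycling genes was thus graded over the comparison cells, with its largest step at the edge of the members, whose lowest part had a G2M level of 1708 CPM and a G1 share of 72.4%. When both groups were limited to cells scored G1, 6 of 16 S phase genes and 6 of 22 G2M genes were called lower and 1 G2M gene higher, and 121 of all 7274 genes (1.66%) were called lower. TOP2A was at a fold of 0.969 there. As these cells were selected by scores of the same S and G2M genes, fewer calls in these lists follow from the selection. Of the 356 genes called higher with all cells and compared in both, 154 (43.3%) were also called higher among cells scored G1, and of the 415 called lower, 99 (23.9%) were called lower again.

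**Figure D2:**
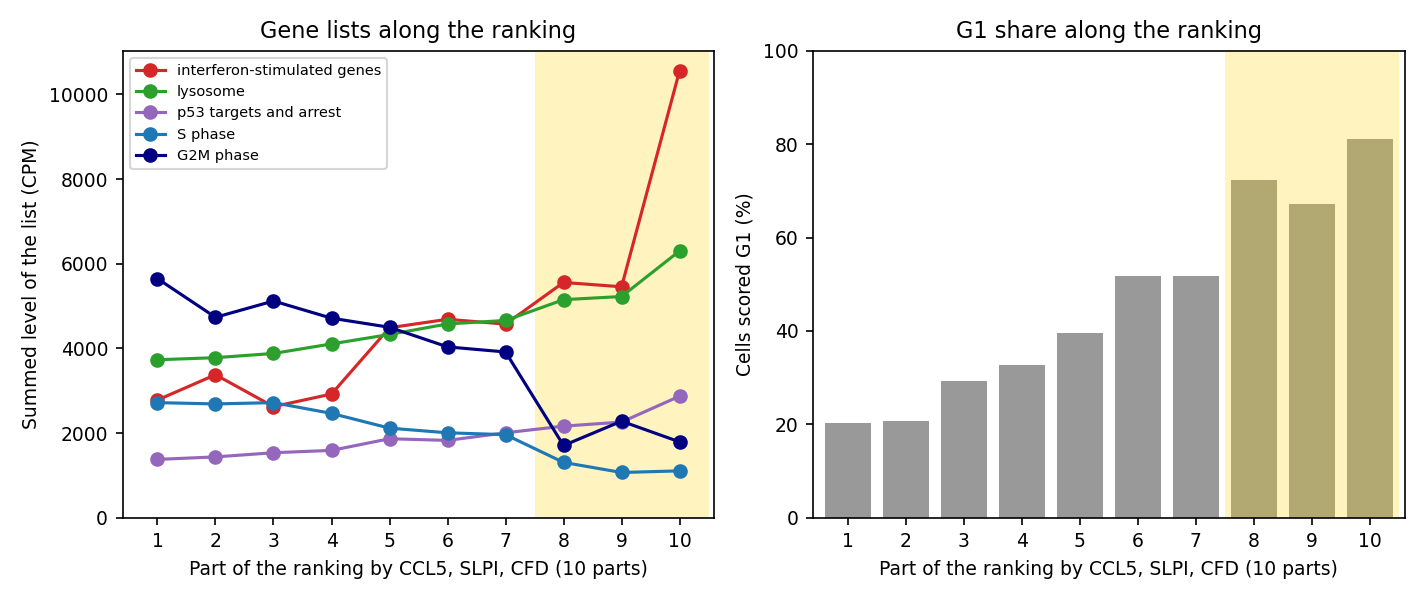
The kept cells are cut into 10 parts by their share of CCL5, SLPI and CFD (x axis), and the shaded parts are the members; the left panel gives the summed level of 5 gene lists in CPM and the right panel the percent of cells scored G1. The S phase and G2M levels are lower and the G1 share is higher toward the upper end, where it reaches 81.0%, and the interferon level is highest in the last part, at 10556 CPM.

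Some lysosomal genes and p53 targets were higher in members. Of 26 lysosomal genes compared, 13 were called higher and 0 lower, with a median log2 fold of 0.57. Among cells scored G1, 6 were called higher, beside 3.20% of all genes. In the lung 2 of 25 were called higher, beside 1.33% of all genes. The count of 13 moved with the settings. It was 7 when PECAM1 UMIs had to be more than 10 times the collagen UMIs, beside 380 of all 7567 genes called higher. Without the 10% of members with the highest share it was also 7, beside 293 of 7550. With the highest 40% taken it was 8, beside 351 of 7556. It was 8 by SLPI and CFD, 6 by SLPI alone, 7 by CCL5 alone and 1 by CFD alone. Of all 7556 genes, these 4 rankings gave 305, 263, 215 and 119 called higher, against 357 in the main ranking. CTSL, a cysteine protease (chr10:27668523-27674705), stood at 68.1 and 22.3 CPM, a fold of 3.05 (2.72 to 3.41). GM2A, a cofactor in ganglioside breakdown, had a fold of 1.97 (1.67 to 2.33) and GRN, progranulin, one of 1.86 (1.76 to 1.98). Without the CCL5-led members, GM2A was at 1.42 (1.17 to 1.72), under the fold of 1.5 that was called, GRN at 1.84 and CTSL at 2.32. CD63, the gene with the highest level in the list, stood at 1607 and 1453 CPM, so the lysosomal genes did not all differ. Among p53 targets and arrest genes, 7 of 19 were called higher and 1 lower, with a median log2 fold of 0.46. Of all 7556 genes, 357 (4.72%) were called higher. In the lung 3 of 19 were called higher, beside 1.33% of all genes. GDF15, a cytokine of stressed cells (chr2:59409035-59411356), stood at 231 and 71.8 CPM, a fold of 3.22 (3.02 to 3.42). GDF15 UMIs were found in 76.8% of thinned members, 57.6% of thinned comparison cells and 70.5% of thinned collagen cells, so it was not limited to ECs. TP53INP1, a p53 cofactor (chr4:41747654-41766688), had a fold of 2.73 (2.40 to 3.10), ZMAT3, an RNA-binding p53 target, of 2.12 (1.999 to 2.24) and MDM2, the ligase that degrades p53, of 1.86 (1.74 to 2.0). CCNG1, the gene with the highest level in the p53 list, stood at 314 and 239 CPM and was not called. Across the 174 members, the lysosomal and the p53 lists had a Spearman correlation of 0.48. The lysosomal list had one of -0.38 with the S and G2M genes. Beside 4.72% of all genes, 4 of 20 small heat shock and oxidative stress genes were called higher. They were CRYAB, a small heat shock protein, at 708 and 312 CPM with a fold of 2.27 (2.20 to 2.34), MT1A, a metallothionein (chr6:18672016-18673673), with a fold of 2.83 (2.502 to 3.20), HSPB6 with 1.84 (1.499 to 2.27) and GPX1 with 1.55 (1.47 to 1.64). MT1A had a fold of 5.43 among cells scored G1 and of 1.53 in the lung.

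Members kept an endothelial profile. None of 11 endothelial markers compared were called in either direction, and the summed level of all 12 was 2154 CPM in members, 2048 CPM in the comparison cells and 158 CPM in collagen cells. CDH5, the cadherin of endothelial junctions, stood at 213 and 185 CPM, and ECSCR, the most abundant marker, at 721 and 707 CPM. Of all 7556 genes, 4.72% were called higher. In the longer list of endothelial identity, 2 of 25 were called higher, near that share. They were ENG, a TGF-β co-receptor, with a fold of 1.67 (1.61 to 1.73) and CAVIN2, a coat protein of caveolae, with a fold of 1.60 (1.55 to 1.66). PECAM1, which was part of the limits, stood at 1263 and 1307 CPM. Arterial genes had 5 of 15 called higher, with a median log2 fold of 0.41. They were MGP, the elastic fibre protein FBLN5 at 460 and 192 CPM with a fold of 2.40 (2.30 to 2.50), the Notch ligand JAG1 with a fold of 1.82 (1.70 to 1.95), SULF1 with 1.80 (1.64 to 1.98) and SEMA3G with 1.77 (1.501 to 2.09). As the gene lists were chosen with earlier results of these data known, these 5 calls, MGP and SULF1 included, only describe the list. Venous genes had 0 of 6 called, with a median log2 fold of -0.09. Capillary and tip genes had 2 of 8 called higher, and 1 of 8 among cells scored G1, led by ESM1 at 1452 and 945 CPM. Genes of flow response and quiescence had 4 of 18 called higher, among them TXNIP with a fold of 2.20 (1.98 to 2.43) and KLF4 with a fold of 1.77 (1.59 to 1.97).

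Genes of TGF-β signalling and of the transition from endothelial to mesenchymal cells had 7 of 27 called higher and 0 lower. Their median log2 fold was 0.36. Of all 7556 genes, 4.72% were called higher. Among cells scored G1, 4 of 27 were called higher, beside 3.20% of all genes. In the lung 1 of 25 was called higher, beside 1.33% of all genes. INHBA, an activin subunit, stood at 54.6 and 26.4 CPM, a fold of 2.07 (1.84 to 2.32), and PMEPA1, a TGF-β response gene, had a fold of 1.96 (1.77 to 2.16). FN1, fibronectin, stood at 686 and 391 CPM, a fold of 1.76 (1.70 to 1.81). VIM, the most abundant gene of the list, stood at 6102 and 6220 CPM, so the list did not move as a whole. Genes of IGF binding and matrix had 7 of 22 called higher and 0 lower, with a median log2 fold of 0.30, and among cells scored G1 5 were called higher and 1 lower. LUM, lumican (chr5:91748871-91756381), stood at 35.9 and 6.82 CPM, a fold of 5.26 (4.37 to 6.36), which was 5.99 when cells were ranked by SLPI alone, 2.54 by CFD alone and 1.25 by CCL5 alone, and DCN, decorin (chr5:91678601-91713925), at 40.5 and 8.995 CPM, a fold of 4.51 (3.82 to 5.33). Both are small leucine-rich proteoglycans that bind collagen fibrils, and both are used as fibroblast markers. LUM UMIs were found in 45.0% of thinned members, 14.7% of thinned comparison cells and 23.0% of thinned collagen cells, and DCN UMIs in 47.0%, 18.2% and 10.7%. LUM stood at only 12.4 CPM and DCN at 4.92 CPM in collagen cells, so both were higher in members than in the cells with the most collagen. Without the CCL5-led cells LUM was at 39.2 CPM, since those cells held 5.04 CPM. When cells scored G1 were ranked anew, LUM had a fold of 3.12. With PECAM1 UMIs also above 10 times the collagen UMIs, that fold was 3.02. IGFBP7, the most abundant gene of this list, stood at 2303 and 1506 CPM, a fold of 1.53 (1.504 to 1.55).

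Markers of other cell types were read as whole lists. Fibroblast markers had 4 of 6 compared called higher, beside 4.72% of all 7556 genes. The summed level of all 12 fibroblast markers was 435 CPM in members, 309 CPM in the comparison cells and 11247 CPM in collagen cells. FBLN1 was the most abundant of them in members, at 165 CPM, and COL6A3 and DPT were at 0. COL1A1 stood at 27.5 CPM in members, 16.8 CPM in the comparison cells and 4820 CPM in collagen cells. When only cells with PECAM1 UMIs above 10 times the collagen UMIs were kept, LUM had a fold of 5.24, and COL1A1, which that limit itself bounds, had one of 0.995. Smooth muscle and pericyte markers had 0 of 1 called and summed to 310 and 227 CPM, against 4028 CPM in collagen cells. TAGLN was the most abundant, at 295 and 217 CPM, while DES, ABCC9 and KCNJ8 were at 0 in members. T and NK markers were read because CCL5 is a T cell product. Of 17 among the features 14 were at 0 in members, PTPRC, CD3D, CD3E, CD3G and CD8A included, where a count of 0 allows up to 0.291 CPM. The list summed to 56.1 and 33.2 CPM, of which CD247 made up 51.9 and 31.7 CPM, a fold of 1.64 (1.46 to 1.83). Macrophage and monocyte markers summed to 13.4 and 8.58 CPM, with CD14 the most abundant at 4.07 and 3.37 CPM and 8 of 16 at 0 in members, PTPRC, CSF1R, CD163 and TYROBP included. Adipocyte markers, read because CFD is abundant in fat cells, summed to 18.0 and 15.9 CPM. RBP4 was the most abundant at 9.51 and 7.11 CPM, and 4 of 11, ADIPOQ, PLIN1, PLIN4 and LEP, were at 0 in members.

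Markers of further types were low or alike. Neutrophil and mast cell markers summed to 29.5 and 39.1 CPM over 7 genes, nearly all of it KIT at 28.8 and 39.0 CPM, with 4 at 0 in members, CSF3R, S100A12, S100A8 and FCER1A. B and plasma cell markers summed to 4.17 and 2.92 CPM over 7 genes, with JCHAIN the most abundant at 2.04 CPM and MS4A1 and MZB1 at 0. Epithelial markers, a type known to secrete SLPI, summed to 9.70 and 7.97 CPM over 15 genes. KRT7 made up 9.02 CPM of this in members, and 11 markers, EPCAM, CDH1, KRT8 and KRT18 included, were at 0. Erythroid and platelet markers summed to 70.8 and 68.0 CPM over 5 genes, most of it ITGA2B at 58.9 and 62.4 CPM, with HBB and ALAS2 at 0. Lymphatic markers summed to 0.679 and 0.370 CPM over 7 genes, with CCL21 the most abundant and PROX1, LYVE1 and PDPN among 5 at 0, and all 4 mesothelial markers among the features, WT1 and CALB2 included, were at 0 in members. The part of cells of other types in the differences was not tested beyond these levels.

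Genes of basic metabolism were at like levels in both groups. Cholesterol synthesis genes had 0 of 21 called, with a median log2 fold of 0.02, and IDI1, an enzyme of isoprenoid synthesis, stood at 175 and 204 CPM. Genes of glycolysis and hypoxia had 0 of 18 called, with a median log2 fold of -0.04, and GAPDH stood at 3830 and 4374 CPM. Ribosomal protein genes had 0 of 39 called, with a median log2 fold of -0.05. The unfolded protein response had 1 of 19 called higher and 1 lower, near the shares of all genes, 4.72% and 8.92%. The gene called higher was DDIT3, a stress factor, with a fold of 2.15 (1.81 to 2.56). ASNS, asparagine synthetase, was called lower, with a fold of 0.488 (0.420 to 0.564). Mitochondrial transcripts had 0 of 13 called, but their median log2 fold was 0.24 and their summed level 77513 and 65256 CPM. These lists thus differed little between the groups, with the mitochondrial transcripts somewhat higher in members.

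**Figure D3:**
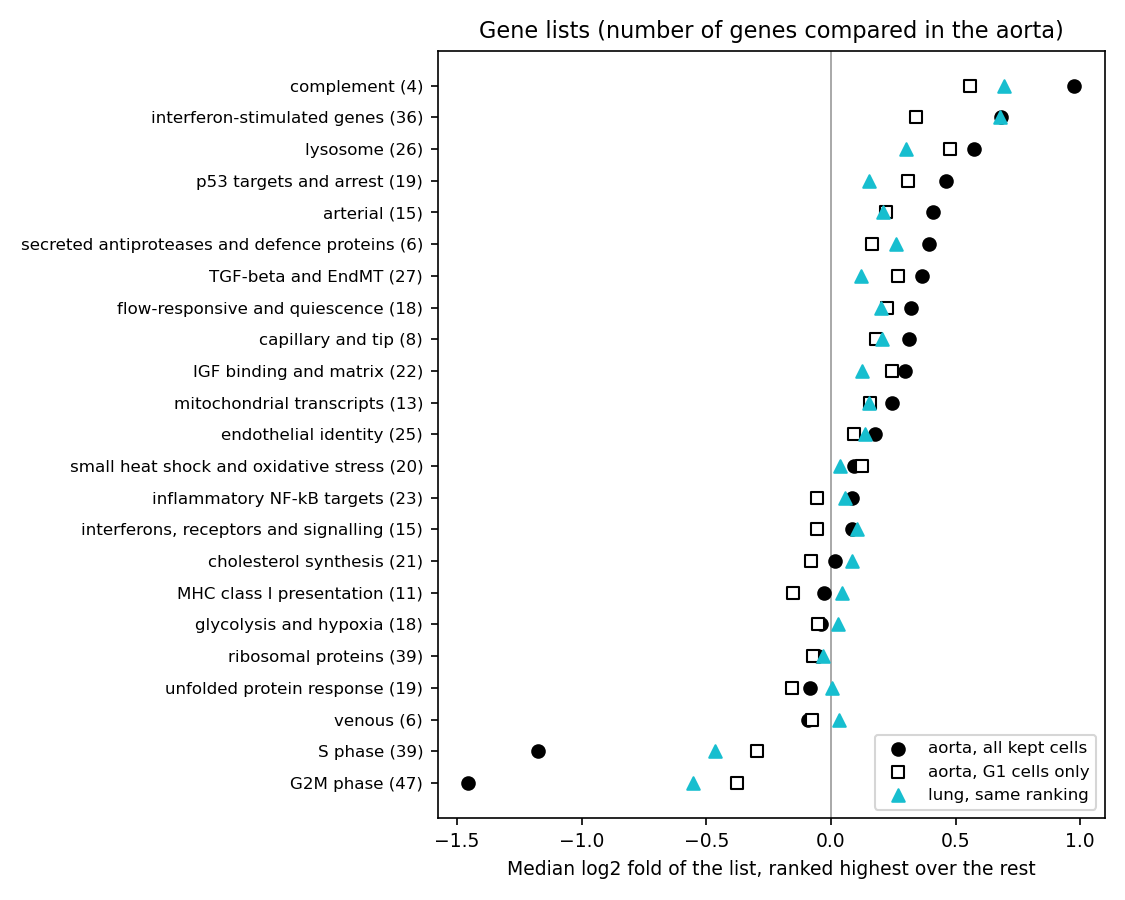
The x axis is the median log2 fold of each gene list, cells ranked highest over the other cells, with the number of genes compared in the aorta in brackets; circles are all kept aorta cells, squares are aorta cells scored G1 and triangles are lung cells ranked in the same way. The interferon list has a median of 0.68 in both libraries, and the S phase and G2M medians of -1.18 and -1.46 in the aorta are -0.47 and -0.55 in the lung.

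The same ranking was made in the cultured lung ECs, a library that did not choose the members. Lung cells were shallower, so 2000 or more detected genes were asked for with the other limits as before. This kept 4918 lung cells with a median of 9968 UMIs in the 1475 ranked highest and 9565 UMIs in the other 3443. Of 7382 genes compared in the lung, 98 (1.33%) were called higher and 84 (1.14%) lower. Among 7140 genes compared in both libraries, 76 were called higher in both, which is 27.9% of the 272 called higher in the aorta and 81.7% of the 93 called higher in the lung. For genes called lower, 74 were shared, 11.5% of 642 in the aorta and 97.4% of 76 in the lung, and 0 genes were called in opposite directions. As both rankings read CCL5, SLPI and CFD, this overlap describes what went with these genes in each library.

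Interferon-stimulated genes led in the lung as well, where 23 of 36 compared were called higher, with a median log2 fold of 0.68. RSAD2 stood at 59.6 CPM in the lung cells ranked highest and 13.9 CPM in the other lung cells, a fold of 4.29, and ISG15 at 939 and 366 CPM, a fold of 2.56. When lung cells were ranked by SLPI and CFD alone, 15 of 36 interferon-stimulated genes were called higher, beside 83 of all 7382 genes, and RSAD2 had a fold of 1.88. In the aorta this ranking gave 3 of 36, beside 305 of 7556 genes, and a fold of 1.02. The difference between the libraries was not tested. CXCL10 stood at 57.7 and 7.75 CPM. MGP was at 36.4 and 9.24 CPM, a fold of 3.94, CTSL had a fold of 3.15 and GDF15 of 2.65, so these 3 genes were higher in the cells ranked highest in both libraries. Of the cell cycle lists, 5 of 35 S phase genes and 19 of 47 G2M genes were called lower in the lung. Of all genes, 8.92% were called lower in the aorta and 1.14% in the lung. Whether the cell cycle lists differed less in the lung was not tested. Fewer of all genes were called higher there, 1.33% against 4.72% in the aorta, and the counts of other lists are given beside that share without a test. They were 2 of 15 arterial genes, 0 of 8 capillary and tip genes, 1 of 17 genes of flow response and quiescence, 3 of 17 of IGF binding and matrix, 1 of 7 antiproteases and defence proteins, and 2 of 19 small heat shock and oxidative stress genes. LUM, DCN and NOV were under the level asked for in a comparison in the lung, so no call could be made. LUM had 0 UMIs in the 1475 lung cells ranked highest, which allows up to 0.190 CPM, and 1 UMI in the other 3443, and DCN had 1 UMI and 0 UMIs. For LUM and DCN, whether they go with the ranking in the lung therefore cannot be read. NOV was at 2.85 and 3.12 CPM, a fold of 0.914 (0.632 to 1.30).

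The letters of regulatory elements were counted in the promoters of the genes compared, from 250 bases before to 50 bases after the gene start in the RefSeq annotation of Sscrofa11.1, on both strands, since many interferon-stimulated genes moved together. The letters GAAANNGAA, part of an interferon-stimulated response element, were found in 455 of 6741 promoters (6.75%). They were found in 32 of 320 promoters of genes called higher (10.0%), in 36 of 613 of genes called lower (5.87%), in 18 of 34 interferon-stimulated genes compared (52.9%) and in 15 of 23 of those called higher (65.2%). The letters GGGANNTTC, part of a κB element, were found in 329 of the 6741 promoters (4.88%), in 14 of 320 of genes called higher (4.38%) and in 40 of 613 of genes called lower (6.53%). The interferon letters were thus frequent among interferon-stimulated genes, and the κB letters were not more frequent in genes higher in members. Of the 32 genes called higher with the interferon letters, 15 are genes of the interferon list. The 10.0% therefore does not describe the genes called higher outside that list. A match describes the letters and does not show that a factor binds. The promoters of CXCL10, RSAD2 and ISG15, interferon-stimulated genes named above, are given below as the 250 bases before the gene start, 5′ to 3′ on the strand of the gene in Sscrofa11.1, with matches on either strand in capitals. In CXCL10 (chr8:71695949-71696198, minus strand) the first capitals are an interferon match and the second a κB match. In RSAD2 (chr3:128897810-128898059, minus strand) the capitals are an interferon match, and in ISG15 (chr6:63362951-63363200, plus strand) they are 4 interferon matches, of which 3 overlap. The promoter of CFD held no match of either kind, and that of IFIT1 held 1 interferon match that reaches past the gene start, and these are not shown. The promoters of the other ranking genes are not described, so CFD does not speak for the ranking genes as a set.
CXCL10: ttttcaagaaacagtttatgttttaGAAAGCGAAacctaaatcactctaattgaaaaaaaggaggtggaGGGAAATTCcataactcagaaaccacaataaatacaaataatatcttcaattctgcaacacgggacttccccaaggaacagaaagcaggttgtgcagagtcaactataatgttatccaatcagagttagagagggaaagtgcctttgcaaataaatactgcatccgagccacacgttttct
RSAD2: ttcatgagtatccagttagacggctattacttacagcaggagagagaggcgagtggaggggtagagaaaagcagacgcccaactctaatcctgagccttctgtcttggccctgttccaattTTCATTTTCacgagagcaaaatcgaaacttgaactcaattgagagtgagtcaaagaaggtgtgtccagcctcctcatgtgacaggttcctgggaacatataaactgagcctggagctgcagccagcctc
ISG15: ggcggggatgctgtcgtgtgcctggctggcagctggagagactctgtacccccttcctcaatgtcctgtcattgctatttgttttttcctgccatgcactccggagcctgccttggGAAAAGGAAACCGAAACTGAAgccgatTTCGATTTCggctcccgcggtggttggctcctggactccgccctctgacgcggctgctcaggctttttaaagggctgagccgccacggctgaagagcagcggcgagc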

How the data were processed

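The authors deposited counts (UMIs per gene and cell, from Cell Ranger 3.0.2 on Sscrofa11.1) with no normalization and no limits on cells applied. Members were found by the limits and the ranking given above. The members and the gene lists were chosen with earlier results of these data known. Of 22804 features, 14979 had a symbol, 1051 took one from a gene name table and 6774 were kept under their identifier, with older symbols matched to listed genes. Folds carry exact conditional binomial intervals, levels exact Poisson and shares Clopper-Pearson intervals. Named genes were the ranking genes, RSAD2, the 15 largest and 10 smallest folds at 50 CPM or more in at least 25% of cells, up to 4 genes per list with the largest differences, the most abundant genes of lists, and markers. Other genes were named after their values were seen. Phases were scored in scanpy 1.11.5 on counts normalized to 10000 UMIs, and Scrublet was run there. Promoters were read from the genome sequence of the same build, since no promoter table was given, and 6741 of 7556 genes had one. Python 3.11.15, numpy 2.4.6, pandas 2.3.3 and scipy 1.17.1 were used. The comparison steps were tested on simulated data. Alternatives are in the closing section.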

Additional observations from a re-analysis of the deposited data

Results flagged for a closer look

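The ranking genes were also present in cells that entered no comparison. In 121 aorta ECs with under 5000 detected genes, which passed the other limits, CCL5 stood at 335 CPM, SLPI at 537 CPM and CFD at 29.9 CPM, each above the 2.50 CPM that a count of 0 allows there. In 329 lung cells with collagen UMIs at or above PECAM1 UMIs, CCL5 stood at 88.4 CPM, SLPI at 21.8 CPM and CFD at 11.05 CPM, each above the 0.736 CPM that a count of 0 allows. The source of these UMIs was not tested.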

How the results depend on the processing

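Of 177 values under alternative settings, 145 stayed within 1.5 times the main count or within the counting interval of the main value, and 32 moved. The aorta comparison had 24 alternative settings and the lung comparison 3, with the ranking by SLPI and CFD in both. The 145 include 12 numbers of members, which follow from the percentage taken and the number of cells kept, so they do not speak for stability. Single genes could turn, since CXCL10 and IFIT2 were lower in cells ranked by SLPI and CFD, with folds of 0.774 and 0.625. The main values were 174 members, 357 genes higher, 674 genes lower, 23 interferon-stimulated genes higher, 0 NF-κB targets higher, 38 S phase and 46 G2M genes lower, and 76 genes called higher in both libraries. Where a setting changes only the level or the fold asked of a gene, the count follows from its construction. For the other settings the cause was not tested.

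Ranking by CCL5 alone gave 215 genes higher, 267 lower, 3 NF-κB targets higher and 64.4% of members scored G1. Ranking by CCL5 and CFD gave 435 genes lower and 1 NF-κB target higher. Ranking by SLPI and CFD gave 3 interferon-stimulated genes higher and 49 genes higher in both libraries. Keeping only cells scored G1 and ranking them anew gave 81 members, 123 genes lower, and 2 S phase and 4 G2M genes lower. Comparing genes at 50 CPM or more gave 113 genes higher and 232 lower, 13 interferon-stimulated genes higher, and 10 S phase and 25 G2M genes lower. Comparing genes at 2 CPM or more gave 754 genes higher and 1 NF-κB target higher. Asking for a fold of 2 gave 78 genes higher, 240 lower and 12 interferon-stimulated genes higher. Leaving out the 5% of cells with the highest Scrublet score gave 1 NF-κB target higher.

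The following were chosen after seeing the data. Ranking by CFD alone gave 119 genes higher, 288 lower, 2 interferon-stimulated genes higher and 1 NF-κB target higher, and ranking by SLPI alone gave 3 interferon-stimulated genes higher. Leaving out the members led by CCL5 gave 7 interferon-stimulated genes higher. Keeping only cells scored G1 with PECAM1 UMIs above 10 times the collagen UMIs gave 170 genes lower, and 5 S phase and 5 G2M genes lower. The G1-only settings give no G1 share. The design holds 1 aorta library, so the spread between animals or cultures is unknown, and the intervals do not cover it. At the summed depth of the members, 10310314 UMIs, a gene with 0 UMIs may still be present up to 0.291 CPM by the limit of 3 counts.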

Other observations

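The 121 shallow aorta ECs, which lie under the study's limit on detected genes, were read for 3 interferon-stimulated genes and LUM. RSAD2 stood at 200 CPM in them, CXCL10 at 171 CPM, ISG15 at 1309 CPM and LUM at 22.5 CPM. Their median depth was 7807 UMIs, against 55983 in members, so these levels are given as values only. In collagen cells of the aorta, RSAD2 stood at 13.1 CPM and ISG15 at 464 CPM.

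The 10 members led by CFD differed from the members led by SLPI in several genes outside the ranking. GDF15 stood at 757 CPM in them and at 188 CPM in the 147 SLPI-led members, MGP at 550 and 308 CPM, and TOP2A at 3.55 and 63.7 CPM. CD74 was highest in the 17 CCL5-led members, at 103 CPM, against 25.6 CPM in the SLPI-led members. With 10 and 17 cells, these values rest on few cells.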
